A study of Mus musculus with 24 samples.

Results

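The piRNA clusters of pachytene spermatocytes from homozygous Ddx4 knock-in mice were compared with those of heterozygous knock-in mice. The members are the small RNA libraries whose labels give pachytene spermatocytes and either knock-in genotype, 2 homozygous and 2 heterozygous, which is 4 of the 24 libraries of the series. In each library the reads on all 214 listed piRNA clusters were described as a percent of the cluster reads of that library. The wild-type spermatocyte libraries and the round spermatid libraries of all 3 genotypes (n = 2 each) are given beside them where they place a value. All mice other than the wild type carried at least 1 knock-in allele of Ddx4, and the sources used here do not give what that allele changes in the protein. The cells came from testes by a digestion in 2 steps and were enriched fractions, not sorted cells. Each small RNA library was made from 200 ng of total RNA. Nothing in the labels ties the libraries of a group to different animals; p-values therefore reflect library-to-library spread, which may be technical.

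PIWI-interacting RNAs (piRNAs) are short germline RNAs that guide PIWI proteins to transposon and gene transcripts. Their precursors are long single-stranded RNAs from genomic loci called piRNA clusters. In the mouse testis, prepachytene clusters are often the 3′ untranslated ends of protein-coding genes and are active before and at the start of meiosis, pachytene clusters are mostly long noncoding loci switched on by the transcription factor A-MYB in pachytene spermatocytes, and hybrid clusters are active at both times. Ddx4 encodes the mouse homologue of Vasa, a DEAD-box RNA helicase of the germ granules in which piRNAs are made.

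The promoters next to 5 of the clusters described below are printed first, because the clusters fall into one set that was lower and one set that was higher in homozygous spermatocytes, and the letters show what kind of start site each has. They are RefSeq promoters of GRCm38.p6, from 250 bases before to 50 bases after the start site, 5′ to 3′ on the strand of the transcript. Capitals mark AACNGTT, the core that MYB proteins bind and that reads the same on both strands, and CCAAT, searched on both strands; no matches overlap in the printed sequences. The printed promoters are examples and not a full list, so the share of them with a motif does not stand for the lower clusters. The cluster 7-qF3-3125 is not among the largest falls described below. The cluster 14-qA3-284 is among them, but its RefSeq promoter, that of Gm41109, has neither motif and is not printed. The first 3 lie next to clusters that were lower in homozygous spermatocytes, and the start site of 4933440M02Rik lies in the gap between a pair of neighbouring clusters.
15-qE1-8387, promoter of 1700041B01Rik (chr15:78670388-78670687, + strand): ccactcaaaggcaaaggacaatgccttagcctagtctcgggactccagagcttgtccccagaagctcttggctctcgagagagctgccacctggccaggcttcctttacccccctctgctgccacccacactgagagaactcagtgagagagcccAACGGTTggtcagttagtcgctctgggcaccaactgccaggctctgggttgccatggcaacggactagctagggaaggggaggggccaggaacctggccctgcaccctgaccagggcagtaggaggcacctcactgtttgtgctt
10-qA3-2592, promoter of 4930444F02Rik (chr10:18831881-18832180, - strand): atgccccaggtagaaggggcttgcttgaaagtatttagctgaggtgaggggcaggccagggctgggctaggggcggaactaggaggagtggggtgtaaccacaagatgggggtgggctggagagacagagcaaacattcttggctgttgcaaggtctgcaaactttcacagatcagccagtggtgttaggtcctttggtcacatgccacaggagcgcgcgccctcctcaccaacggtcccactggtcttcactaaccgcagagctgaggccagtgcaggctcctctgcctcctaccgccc
7-qF3-3125, promoter of 4933440M02Rik (chr7:125349737-125350036, - strand): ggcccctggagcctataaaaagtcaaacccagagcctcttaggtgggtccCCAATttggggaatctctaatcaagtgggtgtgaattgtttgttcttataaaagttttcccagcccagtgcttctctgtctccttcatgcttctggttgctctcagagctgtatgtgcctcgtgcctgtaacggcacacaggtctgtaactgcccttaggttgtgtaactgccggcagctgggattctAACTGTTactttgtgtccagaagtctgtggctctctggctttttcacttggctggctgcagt
The remaining pair belongs to genes whose prepachytene clusters were higher in homozygous spermatocytes.
pi-March08, promoter of Marchf8 (chr6:116337772-116338071, + strand): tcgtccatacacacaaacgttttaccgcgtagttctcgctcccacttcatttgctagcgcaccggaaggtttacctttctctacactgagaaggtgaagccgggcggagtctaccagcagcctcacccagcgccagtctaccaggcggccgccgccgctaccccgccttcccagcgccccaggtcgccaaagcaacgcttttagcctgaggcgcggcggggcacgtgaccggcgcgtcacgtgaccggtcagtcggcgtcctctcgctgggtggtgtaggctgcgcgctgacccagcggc
pi-Map3k9, promoter of Map3k9 (chr12:81781121-81781420, - strand): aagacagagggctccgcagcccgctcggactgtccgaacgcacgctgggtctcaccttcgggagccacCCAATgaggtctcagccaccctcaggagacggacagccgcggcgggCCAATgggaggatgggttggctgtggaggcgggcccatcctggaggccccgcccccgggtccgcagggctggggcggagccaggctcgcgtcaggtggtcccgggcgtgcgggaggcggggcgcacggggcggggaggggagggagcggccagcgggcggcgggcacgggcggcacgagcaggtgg

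Among the printed promoters, AACNGTT occurs in those of 1700041B01Rik and 4933440M02Rik, where its first base lies at -95 and -12 from the start site. Of the 46 pachytene clusters with a RefSeq promoter whose start site is within 500 bases of a cluster end, 8 (17.4%) had the motif in at least 1 such promoter, against 1 of 22 hybrid clusters, 2 of 58 prepachytene clusters and 4.46% of all 32817 RefSeq promoters. CCAAT was present beside 45.7% of these pachytene clusters, 45.5% of the hybrid clusters and 53.4% of the prepachytene clusters, against 37.4% of all promoters. A cluster can have more than 1 promoter, so the shares of clusters and of promoters are not on quite the same footing. Neighbouring clusters can also share a promoter: 7-qF3-3125 and 7-qF3-246 are both among the 8 and share that of 4933440M02Rik. The median change of the pachytene clusters was -0.75 with AACNGTT and -0.51 without it (log2, homozygous over heterozygous, relative to the median cluster), and this difference was not tested.

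Cluster reads numbered 25.9 and 24.9 M in the homozygous spermatocyte libraries and 24.2 M in each heterozygous one, against 26.9 and 27.3 M in wild-type spermatocytes and 9.23 to 24.1 M in spermatids. Every cluster was listed in all 4 compared libraries, with at least 67 reads. The cluster tables hold no mRNA, so Ddx4 could be checked only in round spermatid RNA of the same genotypes, where it had 55.3 and 60.1 TPM (a transcript level normalised for gene length and depth) in homozygous libraries and 188 and 182 TPM in heterozygous libraries.

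The only marker of cell type in these tables is the balance of the classes, and it set the heterozygous libraries apart. In wild-type cells the pachytene share was 90.2% and 91.2% in spermatids and 80.4% and 80.6% in spermatocytes. In heterozygous cells the order was the other way round, with 84.0% and 85.8% in spermatids and 88.7% and 88.4% in spermatocytes. In homozygous cells it was 79.9% and 81.0% in spermatids and 76.8% and 78.8% in spermatocytes. The likeness of 2 groups was measured over the 209 clusters above 0 in every library, as the standard deviation of the log2 ratio of their mean shares. By this measure the group nearest to homozygous spermatocytes was heterozygous spermatids (0.40), ahead of wild-type spermatocytes (0.55) and heterozygous spermatocytes (0.70). The group nearest to heterozygous spermatocytes was wild-type spermatids (0.28), ahead of heterozygous spermatids (0.49) and wild-type spermatocytes (0.60). Homozygous spermatids too were nearest to a group of the other cell type, wild-type spermatocytes (0.60), ahead of homozygous spermatocytes (0.76) and wild-type spermatids (0.91). The order for homozygous spermatocytes depended on the measure. By the median absolute log2 ratio they were nearest to wild-type spermatocytes (0.27), ahead of heterozygous spermatids (0.32). By mean Spearman correlation heterozygous spermatids (0.98) again came before wild-type spermatocytes (0.97). For heterozygous spermatocytes and homozygous spermatids the nearest group was the same by the median absolute log2 ratio (0.21 and 0.24). By the standard deviation, libraries of 1 group differed by 0.11 in homozygous, 0.07 in heterozygous and 0.08 in wild-type spermatocytes. In spermatids they differed by 0.37 in homozygous, 0.13 in heterozygous and 0.13 in wild-type libraries, so distances of homozygous spermatids are the least certain. The groups below are those of the labels, which were used as given. Whether every library holds the cell type and genotype of its label was not tested, and every comparison rests on it. Genotype and the makeup of the enriched fraction also cannot be told apart in the comparison of homozygous with heterozygous spermatocytes, and values against wild-type spermatocytes are given beside it.

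Prepachytene clusters took a larger share of the reads in homozygous than in heterozygous spermatocytes, and pachytene clusters a smaller one. The 84 prepachytene clusters held 16.7% and 15.0% of cluster reads in homozygous libraries, against 7.26% and 7.52% in heterozygous libraries, a ratio of 2.14 between the means. Wild-type spermatocytes had 14.2% and 14.0%, so the heterozygous libraries lay below both other genotypes. The 30 hybrid clusters held 6.49% and 6.22% in homozygous libraries and 4.06% and 4.11% in heterozygous ones (ratio 1.56), with 5.37% in both wild-type libraries. The 100 pachytene clusters held 77.8 ± 1.36% in homozygous libraries and 88.5 ± 0.209% in heterozygous libraries (mean ± SD, n = 2 each), a difference of -10.7 percentage points. The groups did not overlap in any of the 3 classes, and each gave p = 0.333 in a two-sided exact permutation test, the smallest p that 2 libraries against 2 allow.

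**Figure D1:**
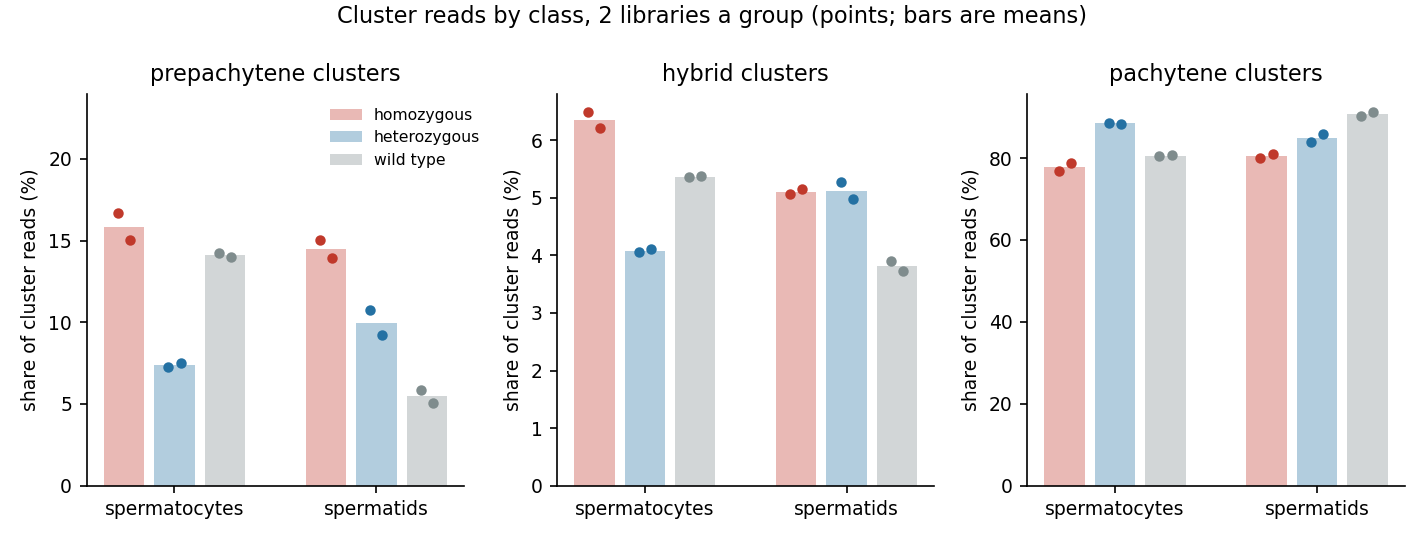
Share of cluster reads (%, y axis) on prepachytene, hybrid and pachytene clusters in spermatocytes and spermatids of homozygous, heterozygous and wild-type mice; points are libraries, 2 a group, and bars are their means. The heterozygous spermatocytes have the lowest prepachytene share among spermatocytes (7.26% and 7.52%) and the highest pachytene share (88.7% and 88.4%).

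The plot of class shares shows that homozygous spermatocytes lay nearer to wild-type spermatocytes than the heterozygous ones did in all 3 classes, and on the other side of them. Reads were also spread over more clusters in homozygous cells. The 10 clusters most abundant in wild-type spermatocytes held 28.2% and 28.9% of the reads in homozygous libraries, against 33.9% and 33.8% in heterozygous libraries (exact permutation p = 0.333, two-sided, n = 2 each) and 30.9% and 30.8% in wild-type libraries. Together 25 and 24 clusters were enough to hold 50% of the reads in homozygous libraries, against 18 in each heterozygous library and 22 in each wild-type library. Because the tissue fractions are bulk samples, a change in the number of cells that make a class of piRNAs and a change in the amount made per cell cannot be told apart.

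Cluster by cluster, edgeR's quasi-likelihood test called 180 of the 214 clusters (84.1%) at an adjusted p under 0.05, with 111 higher (51.9%) and 69 lower (32.2%) in homozygous spermatocytes. Of the prepachytene clusters 70 were higher, 0 were lower and 14 were not called. The hybrid class split into 21 higher and 6 lower clusters, and the pachytene class into 20 higher and 63 lower ones. The split between higher and lower calls depends on the scaling, because so many clusters moved: it was 129 to 43 with scaling by total cluster reads and 87 to 85 with the RLE (relative log expression) factors. Under TMM (trimmed mean of M-values) scaling the median cluster was at 0.35 on the log2 scale, so every change of a cluster below is given as a log2 change relative to the median cluster, with the adjusted p of the fitted change and the standard error (SE) of the fit. On that scale the medians were 0.44 for prepachytene, 0.11 for hybrid and -0.69 for pachytene clusters, and the 3 scalings and DESeq2 gave the same order of the classes. With scaling by total reads the pachytene class had 32 clusters higher and 42 lower, so a majority of lower calls stayed under each scaling while the margin did not.

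**Figure D2:**
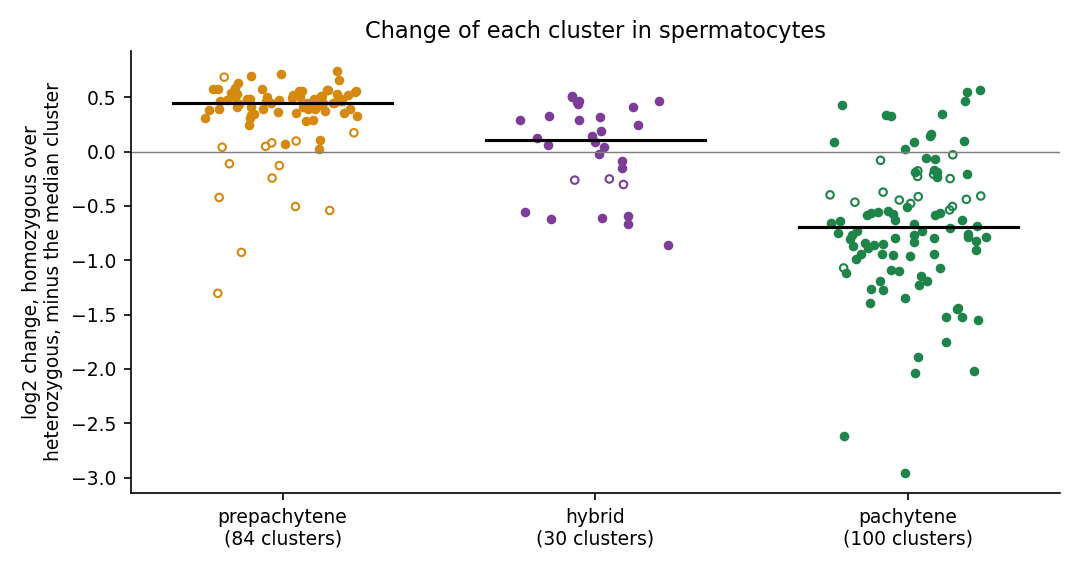
Log2 change of each of the 214 clusters in spermatocytes, homozygous over heterozygous, minus the median cluster (y axis), by class; filled points were called by edgeR, open points were not, and the black bars are class medians. Most prepachytene clusters form a tight band around 0.44, though the class reaches from -1.30 to 0.74. The pachytene clusters reach from -2.96 to 0.56.

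The spread differed too, as the plot of changes by class shows. The middle 50% of prepachytene clusters lay between 0.32 and 0.52, the middle 50% of hybrid clusters between -0.26 and 0.32 and that of pachytene clusters between -0.97 and -0.24. In shares, which need no scaling factor, 205 of the 214 clusters (95.8%) did not overlap between the groups, 149 of them higher (69.6%) and 56 lower (26.2%) in homozygous spermatocytes.

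All of the 10 clusters with the largest rises were prepachytene, and all but 1 were named after a host gene. Their shares were 2.28 to 2.59 times as high in homozygous as in heterozygous spermatocytes. The largest rise was that of pi-Shank3, in the gene of a scaffold protein of synapses, which held 0.101% and 0.0947% of the reads in homozygous libraries and 0.0372% and 0.0384% in heterozygous libraries, with 0.0954% and 0.0979% in wild-type libraries (log2 0.74, SE 0.16, edgeR adjusted p = 8.4e-05). The cluster pi-March08 over Marchf8, which encodes a membrane-bound ubiquitin ligase and whose promoter is printed above, held 0.258% and 0.236% in homozygous libraries and 0.0961% and 0.0988% in heterozygous libraries (log2 0.71, SE 0.11, edgeR adjusted p = 7.3e-06). The wild-type value of that cluster, 0.204% and 0.209%, again lay near the homozygous one.

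The cluster with the most reads among the 10 was pi-Lpp, over the gene of an adhesion protein with LIM domains, with 0.702% and 0.693% in homozygous libraries against 0.280% and 0.277% in heterozygous libraries and 0.580% and 0.605% in wild-type libraries (log2 0.70, SE 0.22, edgeR adjusted p = 0.00099). pi-Ankrd11, over the gene of a chromatin regulator with ankyrin repeats, had 0.578% and 0.511% in homozygous libraries and 0.231% and 0.243% in heterozygous libraries (log2 0.57). pi-Map3k9, over the gene of a mixed-lineage kinase, had 0.166% and 0.159% in homozygous libraries and 0.0713% and 0.0695% in heterozygous libraries (log2 0.58). The other 5 were pi-Fbxo41 (log2 0.66), 2-qE5-4 (0.63), which overlaps the kinesin gene Stard9, pi-Uhrf1bp1 (0.58), the sorting nexin cluster pi-Snx30 (0.57) and pi-Wipf2 (0.56), over the gene of a WASP-interacting protein.

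Beside wild type, it was the heterozygous libraries that lay away in these clusters. In all 10 clusters both heterozygous libraries lay below both wild-type libraries, at 0.391 to 0.513 times the wild-type mean. In 8 of the 10 both homozygous libraries lay above both wild-type libraries, at 1.01 to 1.21 times the wild-type mean over the 10. By edgeR all 10 were lower in heterozygous than in wild-type spermatocytes, against 75 of the 214 clusters (35%). Between homozygous and wild-type spermatocytes 7 of the 10 were called higher, against 118 of the 214 (55.1%). The 10 were chosen by the homozygous and heterozygous libraries, which partly fixes where those lie beside wild type, so these counts are a description. Host gene RNA in round spermatids of the same genotypes went either way. Map3k9 had 7 and 6.73 TPM in homozygous libraries and 2.97 and 3.14 TPM in heterozygous libraries, and Lpp had 112 and 115 TPM in homozygous libraries and 95.6 and 95.3 TPM in heterozygous libraries. Uhrf1bp1 was lower, with 14.6 and 12.6 TPM in homozygous libraries and 21.0 and 22.8 TPM in heterozygous libraries. Ankrd11 overlapped, with 24.9 and 27.2 TPM in homozygous libraries and 28.5 and 24.9 TPM in heterozygous libraries. So did Wipf2, with 1.67 and 4.59 TPM in homozygous libraries and 1.69 and 1.91 TPM in heterozygous libraries. Shank3, Fbxo41 and Snx30 were under 2 TPM in these libraries, and spermatocyte RNA was not analysed here.

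The 10 largest falls were all in pachytene clusters, where the homozygous mean share was 0.199 to 0.567 times the heterozygous one. The deepest was in a small cluster, 4-qD2.2-349 (mm10, chromosome 4, 123894130 to 123896600), with 0.00378% and 0.00400% of the reads in homozygous libraries, 0.0199% and 0.0192% in heterozygous libraries and 0.00945% and 0.0103% in wild-type libraries (log2 -2.96, SE 0.15, edgeR adjusted p = 7.2e-08). Of the abundant loci, 7-qD1-19431 (chromosome 7, 73105311 to 73126555, with no RefSeq gene on it) fell most, with 0.386% and 0.399% in homozygous libraries against 1.56% and 1.55% in heterozygous libraries and 1.14% and 1.16% in wild-type libraries (log2 -2.61, SE 0.05, edgeR adjusted p = 3.3e-11). Its share was thus below both other genotypes, with no overlap. Coordinates are the numbers in the cluster names as deposited, which do not state whether the first base is counted from 0 or 1.

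Next to it in size of change were a pair of clusters on chromosome 15. The cluster 15-qD3-14639 (74636387 to 74648452), which overlaps the gene Mroh4, held 0.650% and 0.659% in homozygous libraries and 1.75% and 1.73% in heterozygous libraries, with 1.94% and 1.92% in wild-type libraries (log2 -2.04, SE 0.04, edgeR adjusted p = 5.8e-11). The cluster 15-qE1-8387 (78653228 to 78670532), beside the 1700041B01Rik promoter printed above and overlapping Elfn2, held 0.254% and 0.260% in homozygous libraries and 0.663% and 0.684% in heterozygous libraries, with 0.658% and 0.661% in wild-type libraries (log2 -2.02, SE 0.05, edgeR adjusted p = 3.9e-10). In these clusters the homozygous libraries were the ones that stood away, since heterozygous and wild-type shares were close.

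The cluster 10-qA3-2592 (chromosome 10, 18796805 to 18831930), whose end holds the start of the noncoding RNA 4930444F02Rik, had 0.181% and 0.188% in homozygous libraries and 0.445% and 0.441% in heterozygous libraries, but 0.642% and 0.673% in wild-type libraries (log2 -1.89). The cluster 12-qE-23911 had 1.19% and 1.24% in homozygous libraries and 2.68% and 2.63% in heterozygous libraries, with 1.78% and 1.83% in wild-type libraries (log2 -1.75). The cluster 4-qC5-17839 had 1.19% and 1.24% in homozygous libraries and 2.31% and 2.21% in heterozygous libraries (log2 -1.52). The remaining falls of the 10 were in 6-qC3-2394 (log2 -1.55), 14-qA3-284 (-1.52) and 6-qC3-100 (-1.45), each over a noncoding RNA gene of RefSeq. In all 10 both homozygous libraries also lay below both wild-type libraries, at 0.276 to 0.683 times the wild-type mean, whereas the heterozygous libraries lay above wild type in 7 clusters and below it in 3. By edgeR all 10 were lower in homozygous than in wild-type spermatocytes, against 28 of the 214 clusters (13.1%). These 10 too were chosen by the homozygous and heterozygous libraries, which partly fixes where those lie beside wild type, so this is a description.

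**Figure D3:**
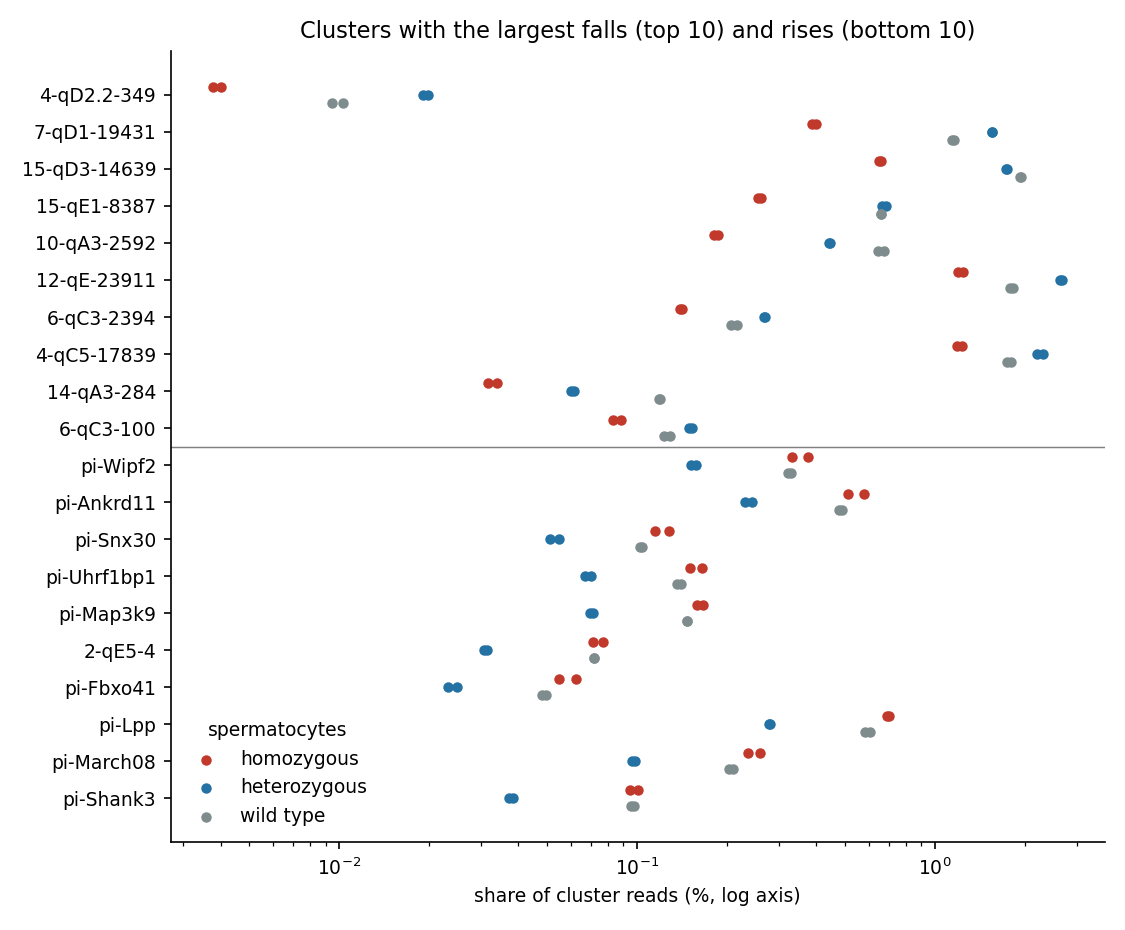
Share of cluster reads (%, log axis) of the 10 clusters with the largest falls (top) and the 10 with the largest rises (bottom) in spermatocytes; each point is 1 library, with homozygous, heterozygous and wild-type libraries in separate colours, 2 each. In the falls the homozygous points lie left of both other genotypes, while in the rises the heterozygous points do.

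The plot of named clusters shows this difference between the sets: the wild-type libraries sit beside the homozygous ones in the rises and above them in the falls. Counted over all clusters, edgeR under TMM scaling called 146 of 214 (68.2%) between homozygous and wild-type spermatocytes, 118 higher (55.1%) and 28 lower (13.1%), and 172 (80.4%) between heterozygous and wild-type spermatocytes, 97 higher (45.3%) and 75 lower (35%). Both comparisons use the same wild-type libraries. Neither overall split held under every scaling: that against wild type turned to 35 higher and 61 lower in homozygous spermatocytes under RLE factors (34 and 59 by DESeq2), and to 51 higher and 112 lower in heterozygous spermatocytes under scaling by total reads. Of the prepachytene clusters, 50 were higher and 0 lower in homozygous than in wild-type spermatocytes (median 0.03 relative to the median cluster). That count rested on the scaling, with 19 higher and 0 lower under scaling by total reads and 7 higher and 6 lower under RLE factors. In heterozygous against wild-type spermatocytes 9 prepachytene clusters were higher and 55 lower (median -0.65), and lower calls were in excess under every scaling, with 66 lower under scaling by total reads and 60 under RLE factors. Of the pachytene clusters, 49 were higher and 27 lower in homozygous than in wild-type spermatocytes (median -0.13), a split that turned to 22 and 47 under RLE factors. In heterozygous against wild-type spermatocytes 80 were higher and 9 lower (median 0.33), and 44 and 26 under scaling by total reads.

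The 8 most abundant clusters, all pachytene, had changes from -1.28 to -0.58, beside the pachytene median of -0.69. The cluster 5-qF-14224, over the locus of Aym1, held 2.07% in both homozygous libraries and 3.22% and 3.27% in heterozygous libraries, with 3.53% and 3.47% in wild-type libraries (log2 -1.28, SE 0.03, edgeR adjusted p = 1.7e-09). The cluster 9-qC-31469 held 2.34% and 2.37% in homozygous libraries and 3.48% in both heterozygous libraries (log2 -1.19), and 2-qE1-35981 held 3.75% and 3.87% in homozygous libraries and 4.67% and 4.59% in heterozygous libraries (log2 -0.91). The cluster 6-qF3-28913, known with its neighbour as pi6, a locus whose deletion impairs male fertility in mice, held 3.07% and 3.21% in homozygous libraries and 3.69% and 3.67% in heterozygous libraries, with 2.80% in both wild-type libraries (log2 -0.86). Here both knock-in genotypes lay above wild type.

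Some of the largest loci had nearly equal shares in the compared groups. The cluster with the most reads in the homozygous and heterozygous spermatocytes, 18-qE1-36451, held 5.42% and 5.57% in homozygous libraries and 5.33% in both heterozygous libraries, with 3.64% and 3.76% in wild-type libraries. The TMM fit called it lower, with a fitted log2 of -0.23 (edgeR adjusted p = 4.6e-05), which is -0.58 relative to the median cluster. Under scaling by total cluster reads the fitted log2 was 0.04, while the value relative to the median cluster stayed at -0.58. The cluster 17-qA3.3-26735 held 2.59% and 2.65% in homozygous libraries and 2.60% and 2.65% in heterozygous libraries. The cluster 5-qG3-23659 held 2.82% and 2.98% in homozygous libraries and 2.92% and 2.89% in heterozygous libraries. Both were called lower under TMM, with a fitted log2 of -0.28, which is -0.63 relative to the median cluster. Neither was called with scaling by total reads. The neighbour of 17-qA3.3-26735, 17-qA3.3-27363, held 1.83% and 1.84% in homozygous libraries and 2.27% and 2.31% in heterozygous libraries (log2 -0.95).

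Hybrid clusters lay between -0.86 and 0.51, the narrowest range of the 3 classes. The highest relative change was that of pi-Strbp, over the gene of a spermatid RNA-binding protein, with 0.473% and 0.447% in homozygous libraries against 0.204% and 0.213% in heterozygous libraries (log2 0.51, SE 0.07, edgeR adjusted p = 1.3e-06). At the other end, pi-Tbl2 held 0.163% and 0.154% in homozygous libraries against 0.185% and 0.187% in heterozygous libraries (log2 -0.86, edgeR adjusted p = 0.00012). The other 5 hybrid clusters called lower were pi-Pou6f1, 6-qF3-3040, pi-Asb1, 15-qE1-3710 and pi-Eif2c2, which covers the Argonaute gene Ago2. In shares none of these 5 was separately lower: pi-Pou6f1, 6-qF3-3040 and pi-Asb1 overlapped between the groups, and 15-qE1-3710 and pi-Eif2c2 lay higher in homozygous libraries, with 0.213% and 0.199% against 0.193% and 0.199% in heterozygous libraries for pi-Eif2c2. Under scaling by total reads 1 hybrid cluster was called lower. The hybrid clusters of this paragraph were chosen after their values were seen.

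Of the 14 prepachytene clusters that were not called, the highest share was that of pi-Hjurp, over the gene of a centromere histone chaperone. It held 0.0453% and 0.0412% in homozygous libraries and 0.0360% and 0.0390% in heterozygous libraries (log2 -0.42, edgeR adjusted p = 0.61). Its heterozygous shares were close to those of pi-Shank3, the largest rise, so the 14 were not all thinly covered. pi-Zdhhc23 had the lowest relative value, with 0.00262% and 0.00275% in homozygous libraries and 0.00432% and 0.00426% in heterozygous libraries (log2 -1.30, edgeR adjusted p = 0.053). Its compared shares did not overlap, and the standard error of 0.42 comes from the fit of all small RNA libraries, in which homozygous spermatids had 0.0275% and 0.00810%.

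Against the run of their class, 20 pachytene clusters were called higher under TMM scaling, against 32 under scaling by total reads and 9 under RLE factors. Relative to the median cluster 13 of the 20 were above 0 and 7 below. The largest of these rises was in 13-qA5-208, with 0.468% and 0.483% in homozygous libraries against 0.209% and 0.207% in heterozygous libraries and 0.252% and 0.263% in wild-type libraries (log2 0.56, SE 0.10, edgeR adjusted p = 8.7e-06). The cluster 8-qE1-3748 differed more from wild type than from the heterozygous cells, with 0.783% and 0.865% in homozygous libraries, 0.536% and 0.464% in heterozygous libraries and 0.285% and 0.280% in wild-type libraries (log2 0.09, edgeR adjusted p = 0.00044). The cluster pi-1700006A11Rik showed the same order, with 0.348% and 0.364% in homozygous libraries, 0.219% and 0.215% in heterozygous libraries and 0.126% and 0.130% in wild-type libraries. Those in 8-qA4-332 and 8-qA4-155 are uncertain as separate loci, because their shares were nearly equal in each library (0.318% and 0.301% against 0.322% and 0.302% in the homozygous libraries) and the sources used here do not say how reads matching both were counted.

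Many pachytene clusters lie in neighbouring pairs, which in mice are often transcribed in opposite directions from a shared promoter. Of the 214 clusters, 30 formed 15 pairs with a gap of 38 to 195 bases, and these pairs held 38.2% and 39.1% of the cluster reads in homozygous spermatocytes, against 49.3% and 49.2% in heterozygous and 44.1% and 44.2% in wild-type spermatocytes. Of the paired clusters 26 of 30 were called lower and 3 higher, against 37 lower and 17 higher of the 70 other pachytene clusters, with medians of -0.87 and -0.56. In 11 of the 15 pairs both members were called lower. With 26 of 30 paired clusters called lower, that count does not by itself show that members change together. Between the members of a pair the median difference in log2 change was 0.46, against 0.56 over all possible pairs of pachytene clusters. Yet over the 15 pairs the changes of the members had a Spearman correlation of -0.2, so a deeper fall in one member did not go with a deeper fall in its partner. Neither value was tested.

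The ratio of reads between the members of a pair does not depend on depth or scaling. In the pair of 7-qD1-654 and 7-qD1-19431 the first cluster had 0.520 and 0.490 times the reads of the second in homozygous spermatocytes, against 0.0913 and 0.0960 in heterozygous spermatocytes and 0.0989 and 0.102 in wild-type spermatocytes. The share of 7-qD1-654 itself was 0.201% and 0.196% in homozygous libraries and 0.142% and 0.149% in heterozygous libraries, so its partner carried most of the shift. In the pair of 10-qB5.1-5404 and 10-qB5.1-221 the ratio was 4.47 and 4.51 in homozygous, 10.5 and 11.5 in heterozygous and 5.66 and 5.48 in wild-type spermatocytes. In the pair of pi-1700016M24Rik and 15-qD3-14639 it was 0.0192 and 0.0201 in homozygous, 0.00657 and 0.00675 in heterozygous and 0.00979 and 0.00880 in wild-type spermatocytes. These were the 3 pairs whose members differed by more than 1 in their log2 change. The pair 7-qF3-3125 and 7-qF3-246, which flanks the 4933440M02Rik start site printed above, differed little, at 1.71 and 1.76 in homozygous and 1.52 and 1.62 in heterozygous spermatocytes.

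**Figure D4:**
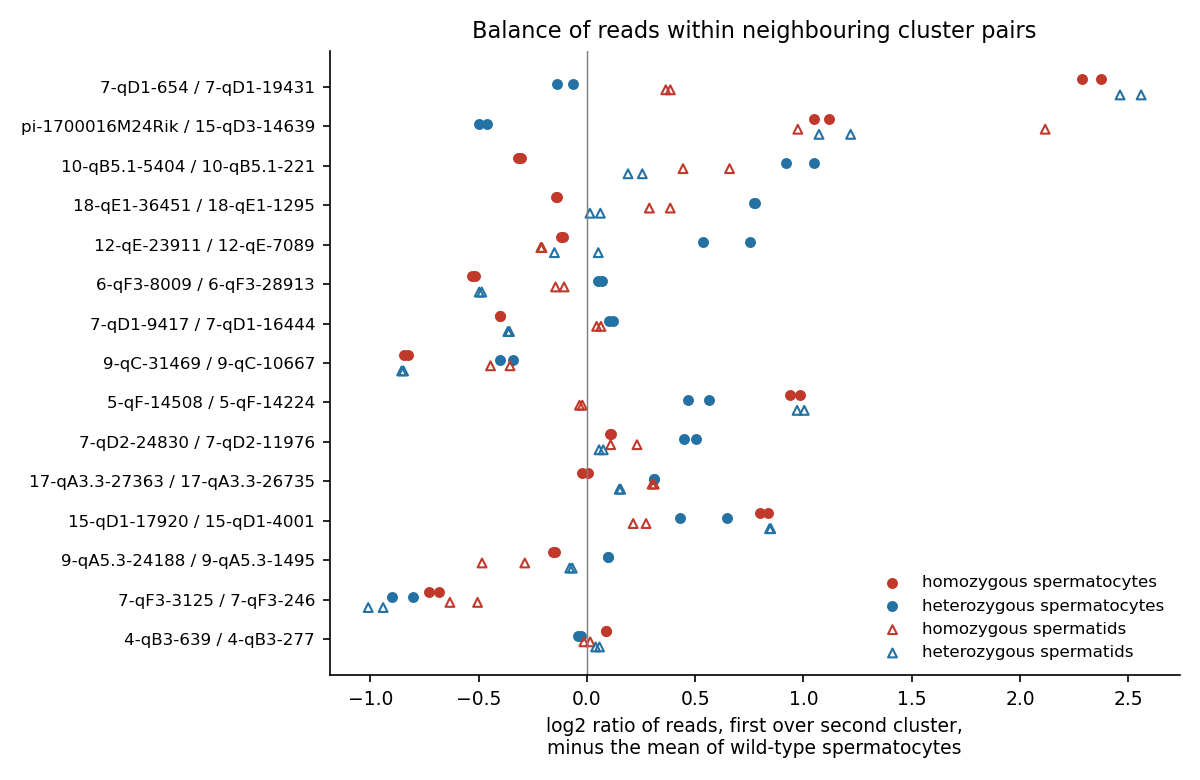
Log2 ratio of reads between the first and the second cluster of each of the 15 neighbouring pairs, minus the mean of wild-type spermatocytes (x axis), in homozygous and heterozygous spermatocytes (filled circles) and spermatids (open triangles), 2 libraries each. Homozygous spermatocytes and heterozygous spermatids lie together in most pairs, also where heterozygous spermatocytes lie far off, as for 7-qD1-654 and 7-qD1-19431.

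The plot of pair ratios repeats, on a measure free of scaling, the likeness described above. For 11 of the 15 pairs the group whose ratio was nearest to that of homozygous spermatocytes was heterozygous spermatids, with a median distance of 0.06 on the log2 scale, against 0.46 to heterozygous and 0.40 to wild-type spermatocytes. For 11 of the 15 pairs the group nearest to heterozygous spermatocytes was wild-type spermatids, with a median distance of 0.09, against 0.48 to wild-type spermatocytes. In the 7-qD1 pair, for instance, heterozygous spermatids had ratios of 0.591 and 0.553, next to 0.520 and 0.490 in homozygous spermatocytes, while homozygous spermatids had 0.131 and 0.129.

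The difference between the compared groups was also set against the wild-type change from spermatocytes to spermatids, which shares no library with it. It is not a separate result from the likeness described above. Heterozygous spermatocytes were so near to wild-type spermatids (0.28) that the 2 ratios would tend to run opposite. Over the 209 clusters above 0 in every library the log2 ratio of homozygous to heterozygous spermatocytes and that of wild-type spermatids to spermatocytes had a Spearman correlation of -0.80. It was -0.68 within prepachytene, -0.72 within hybrid and -0.33 within pachytene clusters, as a description only, since clusters of a library share its composition. Relative to the median, 189 of the 209 clusters had opposite signs in the 2 ratios. So clusters higher in homozygous than in heterozygous spermatocytes were mostly lower in wild-type spermatids than spermatocytes, each relative to the median of its ratio.

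**Figure D5:**
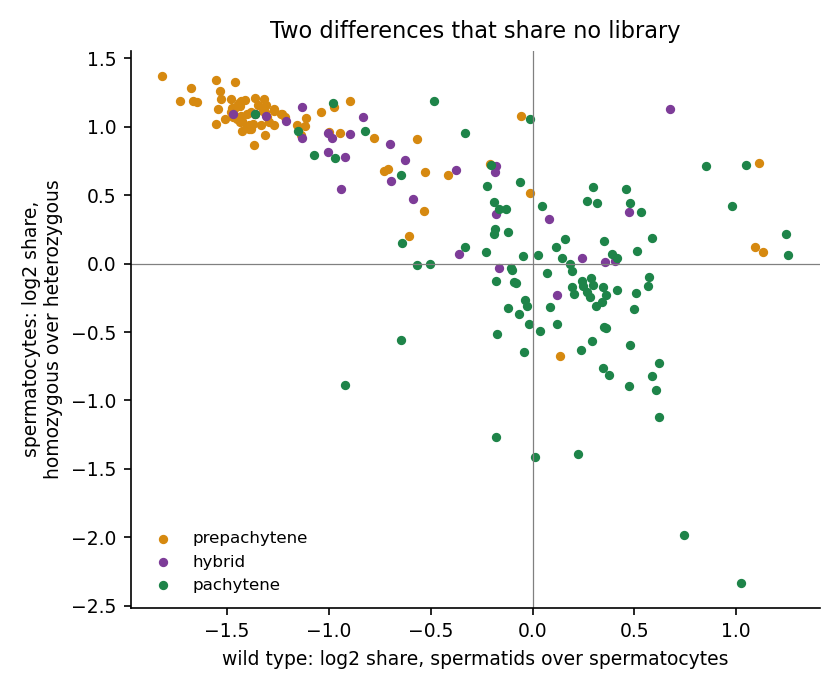
Log2 ratio of shares between homozygous and heterozygous spermatocytes (y axis) against that between wild-type spermatids and wild-type spermatocytes (x axis), for the 209 clusters above 0 in all 12 small RNA libraries, coloured by class. Prepachytene clusters gather at the upper left, and the points run downwards to the pachytene clusters at the right (Spearman -0.80).

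The plot against the wild-type stage difference also shows pachytene clusters off the trend. For comparison, the heterozygous ratio of spermatids to spermatocytes had a Spearman correlation of -0.44 with the wild-type one and the homozygous ratio one of 0.05. In spermatids edgeR called 155 clusters (72.4%) between the homozygous and heterozygous libraries, 75 higher (35%) and 80 lower (37.4%), a split that was 88 to 72 under scaling by total reads. The prepachytene clusters were higher there too, with 47 higher and 8 lower, and the pachytene clusters lower, with 21 higher and 59 lower. Yet all 10 clusters with the largest falls in spermatocytes were higher in homozygous than in heterozygous spermatids, by 1.12 to 3.74 times in mean share. Of these, 7 were called higher in spermatids, and 12-qE-23911, 6-qC3-2394 and 4-qC5-17839 were not (edgeR adjusted p = 0.064, 0.25 and 0.44, relative log2 changes 0.02, 0.04 and -0.02). For example, 7-qD1-19431 had 1.14% and 1.13% in homozygous and 0.440% and 0.462% in heterozygous spermatids. The difference between the genotype effects in spermatids and in spermatocytes was itself called for 161 clusters (75.2%), positive in 58 (27.1%) and negative in 103 (48.1%), a split that turned to 80 and 61 under RLE factors. Within the pachytene class the genotype ratios of spermatocytes and spermatids had a Spearman correlation of -0.68 over 100 clusters.

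The classes differ in length, taken as the whole genomic interval in the cluster name, which reached 599130 bases in the prepachytene class. Parts of an interval that make no piRNAs count in its length, so values per kilobase are not on quite the same footing between classes. The median length was 35421 bases for prepachytene and 18041 bases for pachytene clusters, and over all 214 clusters the change had a Spearman correlation of 0.38 with length. Within the pachytene class that correlation was -0.05, and within the prepachytene class 0.48, where the shortest clusters were also among the thinly covered ones. Per kilobase and per 1 M cluster reads, the median prepachytene cluster had 31.8 reads in homozygous and 15.4 in heterozygous spermatocytes, the median hybrid cluster 67.4 and 37.6, and the median pachytene cluster 262 and 314. Called clusters were not confined to single chromosomes: each of the 19 autosomes had clusters, and each had at least 2 called higher.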

How the data were processed

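Small RNA libraries of pachytene spermatocytes and round spermatids were prepared with the MGIEasy kit, per the labels' protocols. For each library the authors deposited raw counts per cluster, as whole numbers, with class and mm10 coordinates in the cluster names. The submitters' processing notes name Trim Galore and mm10. No source used here gives the aligner, the counting rule or the treatment of reads that match several clusters. The TPM values deposited by the authors for round spermatid RNA were used only for Ddx4 and host genes, without a test.

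Shares are counts over all cluster reads of a library. Counts were tested with edgeR 4.0.16 in R 4.3.3 (TMM scaling, filterByExpr by group, quasi-likelihood F test, Benjamini-Hochberg adjustment over all clusters, threshold 0.05) on all 12 small RNA libraries, so that groups of 2 shared an estimate of spread; all 214 clusters passed the filter. All adjusted p-values come from it. Class shares were tested by a two-sided exact permutation test. DESeq2 1.42.0, other scalings, fewer libraries in the fit and each library left out were alternatives. In simulated data on 214 clusters both groups were drawn at the wild-type spermatocyte means, and 40 clusters were changed, as many up as down. There 19 of 20 clusters changed by a log2 of 1 and 15 of 20 changed by 0.5 were called, with 1 false call. In the real comparison 180 clusters were called and the split depended on the scaling. The simulation did not have that setting and so does not give its rate of false calls. Libraries of a group differed by more than counting noise (chi-square divided by its degrees of freedom was 184 in homozygous and 77.9 in heterozygous spermatocytes), so none was counted as a copy. Reads carry no molecular identifiers and so are not independent molecules.

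Named clusters are the 10 largest rises and 10 largest falls among called clusters whose shares did not overlap, and the 8 most abundant in wild-type spermatocytes; others are named as chosen after their values were seen. The members and lists were chosen with earlier results of these data known. Neighbours are clusters within 1000 bases. Promoters are RefSeq's; no genome was used here, so other cluster sequence is not shown.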

Additional observations from a re-analysis of the deposited data

Results flagged for a closer look

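The genotype difference of a cluster was itself unlike in the cell types for 161 of the 214 clusters (75.2%), by edgeR's test of the difference between the homozygous against heterozygous effect in spermatids and that in spermatocytes; 58 of them had a positive and 103 a negative difference, a split that was 80 to 61 under RLE factors. The values below are that difference, spermatid effect minus spermatocyte effect on the log2 scale, relative to the median cluster. They rest on the heterozygous libraries of both cell types, whose class shares ran against the wild-type order, and the part of that in the differences was not tested.

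All 10 clusters with the largest falls in spermatocytes passed this test with a positive difference: 4-qD2.2-349 (3.84), 7-qD1-19431 (3.74), 15-qD3-14639 (2.99), 15-qE1-8387 (2.79), 10-qA3-2592 (3.59), 12-qE-23911 (1.75), 6-qC3-2394 (1.57), 4-qC5-17839 (1.48), 14-qA3-284 (2.49) and 6-qC3-100 (1.71). These clusters were chosen for their fall in spermatocytes, which largely fixes the sign of this difference, so it is a description. In each of them both homozygous libraries were below both heterozygous libraries in spermatocytes and above them in spermatids, where 7 of the 10 were called higher. Of the 10 largest rises, 7 passed: pi-March08 (-0.72), pi-Fbxo41 (-1.04), 2-qE5-4 (-1.36), pi-Map3k9 (0.77), pi-Uhrf1bp1 (-0.65), pi-Ankrd11 (-0.17) and pi-Wipf2 (-0.40). Of these, pi-Map3k9 had the one positive value; its share in spermatids was 0.275% and 0.302% in homozygous libraries and 0.106% and 0.0904% in heterozygous libraries. Of the abundant clusters, 7 passed: 2-qE1-35981 (0.52), 17-qA3.3-26735 (0.47), 18-qE1-36451 (-0.28), 5-qF-14224 (1.67), 9-qC-31469 (0.94), 17-qA3.3-27363 (0.94) and 5-qG3-23659 (0.12). The last was called as a negative difference, since its fitted value before centring on the median cluster was -0.14.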

How the results depend on the processing

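The total of calls between homozygous and heterozygous spermatocytes, and that of the difference between cell types, stayed within 1.5 times its value, and each class share difference kept its direction, under the alternatives run. Counts by direction did not: the 69 lower calls became 43 under scaling by total reads. Against wild type the 146 calls in homozygous spermatocytes became 106 under scaling by total reads and 96 under RLE factors. The 180 calls between homozygous and heterozygous spermatocytes ranged from 163 to 194, also with each library left out, and the 161 calls of the difference between cell types from 137 to 173. Class shares, homozygous minus heterozygous, ranged from 7.64 to 9.28 percentage points for prepachytene, 2.13 to 2.40 for hybrid and -11.7 to -9.77 for pachytene clusters, and the 10 most abundant clusters from -5.70 to -4.93. Of the 28 named clusters, 28 kept direction and call under each alternative other than scaling by total cluster reads, where 25 did, 17-qA3.3-26735 and 5-qG3-23659 lost the call and 18-qE1-36451 turned to a fitted log2 of 0.04 (-0.58 relative to the median cluster). Libraries of the compared genotypes share only a number (correlation of deviations -0.45 between same-numbered libraries): the replicate block called 181 clusters, and crossed numbers, chosen after seeing the data, called 173. Without the heterozygous spermatids in the fit, also added later, 174 were called. With the spermatocyte libraries alone in the fit 193 clusters were called, and with the 4 compared libraries alone 194; what depth limits was not tested.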
